A study of Mus musculus with 9 samples.

Results

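The genes described here are 10 genes of cytokine signaling through Janus kinases: the kinases Jak1 and Jak2, the transcription factors Stat3, Stat5a and Stat5b, the feedback inhibitors Cish, Socs1, Socs2 and Socs3, and the kinase Pim1. Every array probe whose platform annotation carries one of these symbols was taken, which gave 20 of the 45281 probes on the array. Of these, 14 probes of 9 genes passed the filter on dim probes (at least 3 of the 9 arrays with a detection p-value below 0.01), out of 15870 probes and 9136 genes that passed it. The 6 probes that did not pass were 2 of the 3 Jak1 probes, 2 of the 4 Jak2 probes, 1 of the 2 Socs2 probes and the only Stat5b probe.

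Expression was measured on Illumina mouse bead arrays in bone marrow cells of the C57/Bl6 strain that had been enriched for the surface receptor Kit and transduced with a retrovirus. One group received MN1, a transcriptional coregulator that transforms mouse bone marrow cells, the next MN1-TEL, a fusion of MN1 with the ETS factor TEL (ETV6), and the last MN1-TEL del DBD, which by its label is the fusion with a deletion marked DBD. There were 3 arrays in each group, and all cells had grown in liquid medium for 10 days with the cytokines SCF (20 ng/µl), IL-6 and IL-3 (10 ng/µl for each of the latter), in the units the labels give. Levels of the constructs themselves were not analysed here. There was no untransduced group, so every comparison is between constructs, and both comparisons against MN1 use the same 3 MN1 arrays. The labels do not say that replicates were separate transductions or cultures, and the spread behind every p-value is therefore only that of these samples and may be technical. In such bulk samples, fewer cells of a type and less RNA per cell cannot be told apart.

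Cytokine receptors without a kinase domain of their own carry Janus kinases, which phosphorylate the receptor and the STAT proteins that dock on it. STAT dimers then enter the nucleus and bind gene promoters, among them those of the SOCS family and Cish, whose products block the receptor or the kinase and so close a feedback loop. In blood cell precursors the receptors for IL-3 and GM-CSF signal mainly through JAK2 and STAT5, while the IL-6 receptor signals through the gp130 chain, JAK1 and STAT3, and the PIM kinases are STAT-induced survival factors.

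STAT dimers recognise the palindrome TTCNNNGAA, which is its own reverse complement, so both strands were covered by a single search. Promoter windows from RefSeq (GRCm38.p6), from 250 bases before to 50 bases after each start site, were at hand for 9 of the 10 genes, 12 windows in all. Socs2 had no window and was not searched. The motif was found in the windows of Cish and Socs3 and in no other of the 12. Of all 32851 promoter windows, 8.3% held at least 1 match and 0.457% held at least 2. The 2 windows that held it are shown from 250 bases before to 20 bases after the start site, with the matches in capitals.
Cish, plus strand, chr9:107296409-107296678: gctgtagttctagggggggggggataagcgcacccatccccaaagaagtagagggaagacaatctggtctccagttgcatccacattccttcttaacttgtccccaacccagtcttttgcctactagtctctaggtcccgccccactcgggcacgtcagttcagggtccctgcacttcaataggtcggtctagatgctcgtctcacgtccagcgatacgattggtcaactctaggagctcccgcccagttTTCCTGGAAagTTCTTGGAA
Socs3, minus strand, chr11:117969347-117969616: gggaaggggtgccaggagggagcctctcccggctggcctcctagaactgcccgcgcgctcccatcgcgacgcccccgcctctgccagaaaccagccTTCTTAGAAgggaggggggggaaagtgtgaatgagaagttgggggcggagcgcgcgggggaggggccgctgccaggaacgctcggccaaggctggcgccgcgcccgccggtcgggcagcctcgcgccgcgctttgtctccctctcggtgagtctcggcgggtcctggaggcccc

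Counting the start site as base 1, Cish carried TTCCTGGAA at bases 1 to 9 and TTCTTGGAA at bases 12 to 20, with no overlap. Socs3 carried TTCTTAGAA at bases -154 to -146. These are letter matches in a fixed window, and STAT binding was not measured.

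**Figure D1:**
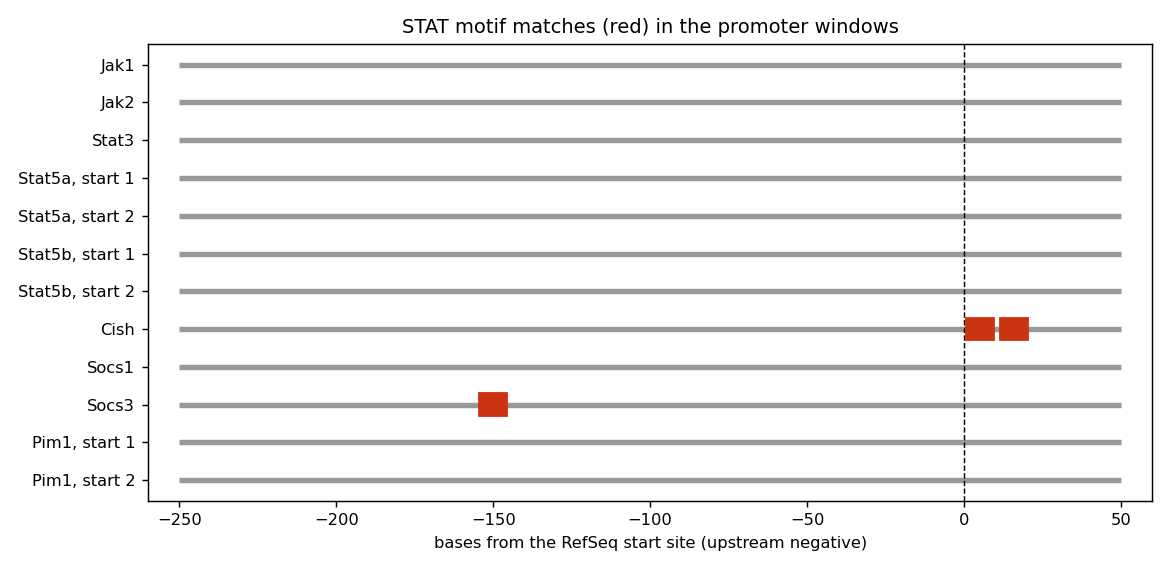
Positions of TTCNNNGAA matches in the promoter windows of the member genes, in bases from the start site on the horizontal axis, with a line per window. The Cish window has 2 matches just after the start site, the Socs3 window has 1 upstream of it, and the other windows have none. Socs2 had no window.

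Across arrays, mean raw intensity was 631.6 to 688.9 with MN1, 926.7 to 973.3 with MN1-TEL and 856.5 to 897.4 with MN1-TEL del DBD, and 14249 to 15273 probes were detected. MN1-TEL replicate 2 stood apart: its log2 values differed from the mean of the other 2 arrays of its group with an SD of 0.49 across genes, against 0.35 for both others and 0.22 to 0.27 in the other groups. Kit, the receptor the cells were enriched for, was detected on every array at log2 means of 13.66 with MN1, 14.39 with MN1-TEL and 12.16 with MN1-TEL del DBD. Of 6 progenitor markers, 5 passed the filter (Flt3 did not), and 1 of them (Kit) was higher and 3 were lower with MN1-TEL than with MN1, while 4 were lower with MN1-TEL del DBD than with MN1. With MN1-TEL, Cd34 fell by 0.94, Sox4 fell by 4.58 and Cd27 was at least 38.3-fold lower. Here and in what follows, "at least" marks a group with no detected array, and sets the bright group against the dimmest detected signal on each array of the dim group, or the probe's own where higher. With MN1-TEL del DBD against MN1-TEL, Kit fell by 2.23, while Sox4 was 3.05 higher and Cd27 at least 8.19-fold higher. The summed intensity of the progenitor markers was 19340 to 21860 with MN1, 16250 to 29890 with MN1-TEL and 7258 to 9020 with MN1-TEL del DBD. Kit was the brightest of them in every group and weighs most in this sum. Of 7 mast cell and basophil markers, 1 rose and 2 fell with MN1-TEL, and 3 fell with MN1-TEL del DBD, against MN1. Their summed intensity was 89970 to 97940 with MN1, 78540 to 112100 with MN1-TEL and 68990 to 80390 with MN1-TEL del DBD. Of 11 neutrophil marker genes, 10 rose with MN1-TEL and 9 with MN1-TEL del DBD against MN1, and their summed intensity was 7693 to 8897 with MN1, 126000 to 139200 with MN1-TEL and 93740 to 100100 with MN1-TEL del DBD. The summed intensity of the 6 monocyte and macrophage markers tested was 978.8 to 1011, 33810 to 42490 and 11920 to 17760 in the same order, with 5 higher and 1 lower for each fusion against MN1. The lower marker was Ccr2 in both cases, at least 5.63-fold lower with MN1-TEL and with a log2 value that fell by 1.94 with MN1-TEL del DBD, while Lyz2 had log2 means of 7.77 with MN1, 14.90 with MN1-TEL and 13.51 with MN1-TEL del DBD. Of the lymphoid markers, 1 of 5 for B cells and 1 of 6 for T and NK cells passed the filter. Of 8 immediate early genes, listed here as handling markers, 7 were higher with MN1-TEL than with MN1. With MN1-TEL del DBD, 7 were lower than with MN1-TEL. What moved these genes, handling or other, was not tested. Many of these markers move with the construct, and their part in the members' results was not tested.

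Among the members, the 2 Janus kinases and Socs3 were higher with both fusions than with MN1, Stat3 (by its 2 brighter probes) and Pim1 (by its brighter probe) were lower with MN1-TEL than with either other construct, and Socs2 was lower with MN1-TEL del DBD than with MN1. A gene is counted by its brightest probe, and called where limma gave an adjusted p under 0.05. With MN1-TEL against MN1, 6 of the 9 genes tested were called, 4 higher (Jak1, Jak2, Socs1, Socs3) and 2 lower (Stat3, Pim1), where 52.2% of all genes were called, 24.2% higher and 28.0% lower. With MN1-TEL del DBD against MN1, 5 of 9 were called, 4 higher (Jak1, Jak2, Cish, Socs3) and 1 lower (Socs2), where 34.0% of all genes were called, 16.7% higher and 17.2% lower. With MN1-TEL del DBD against MN1-TEL, 2 of 9 were called, both higher (Stat3, Pim1), where 26.0% of all genes were called, 13.2% higher and 12.9% lower. The members' shares were 66.7%, 55.6% and 22.2%, of 9 genes each, so the last lies close to the background. The first lies above 52.2% by little for 9 genes, and was 4 of 9 without MN1 replicate 3. The second was 4 of 9 without MN1 replicate 1 or 2, or without MN1-TEL del DBD replicate 2 or 3.

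The median log2 difference of the 9 genes was 0.24, 0.26 and 0.20 in these comparisons, beside -0.06, -0.04 and 0.02 over all genes. Groups did not overlap for 7, 6 and 8 of the 9 genes, beside 60.8%, 58.6% and 41.9% of all genes. With a further minimum of 2-fold, Jak2 and Pim1, then Jak2 and Socs3, then Pim1 alone stayed in, beside 20.4%, 12.3% and 9.19% of all genes. Counted by probe, 9, 8 and 3 of 14 were called, beside 48.8%, 31.4% and 23.4% of all probes. The count in the last comparison rested on single arrays: it was 4 without MN1-TEL replicate 2, and 1 without MN1 replicate 2 or 3, MN1-TEL replicate 1 or any MN1-TEL del DBD array. The probe count there was 5 without MN1-TEL replicate 2. With arrays scaled to a common median in place of quantile normalization, the median over all genes became -0.17, -0.16 and 0.01, and the called members split into 3 higher and 3 lower, 3 and 1, and 1 and 1. Among all genes, that scaling moved the share of calls that were higher from 49.3% to 33.5% with MN1-TEL del DBD against MN1.

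**Figure D2:**
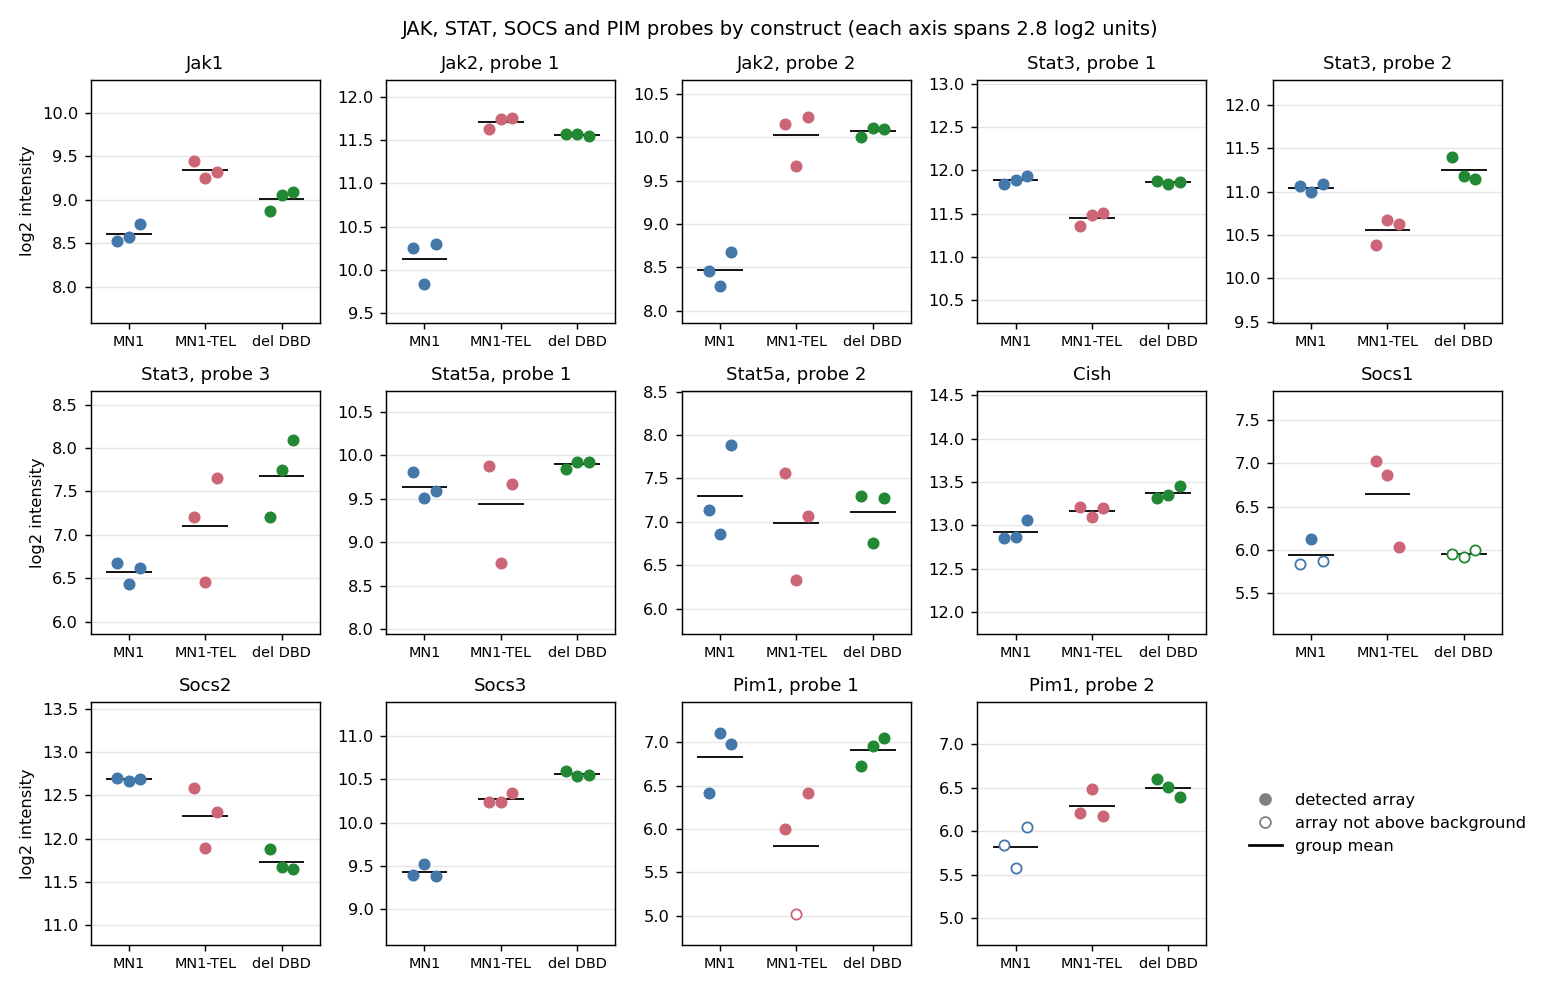
Normalized log2 intensity of each member probe that passed the filter, by construct, with a point per array, open where the probe was not above background, and a bar for the mean of 3 arrays. Both Jak2 probes and Socs3 lie higher on every fusion array than on every MN1 array, and Socs2 lies lowest on the MN1-TEL del DBD arrays.

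Jak2, the kinase of the IL-3, GM-CSF and erythropoietin receptors, had the group means that spanned the widest range among the members. Its brighter probe read 10.26, 9.84 and 10.30 on the MN1 arrays, 11.63, 11.74 and 11.75 with MN1-TEL, and 11.57, 11.57 and 11.55 with MN1-TEL del DBD, all log2. Every fusion array lay above every MN1 array, and the fusion groups lay close together. Against MN1, the log2 difference was 1.57 (SE 0.13, 2.97-fold, limma adjusted p = 1.81e-05) with MN1-TEL and 1.43 (SE 0.13, 2.69-fold, adjusted p = 6.26e-05) with MN1-TEL del DBD. The dimmer probe gave 1.55 (SE 0.17, adjusted p = 7.74e-05) and 1.60 (SE 0.17, adjusted p = 1.21e-04), from 8.46, 8.29 and 8.68 with MN1, 10.16, 9.67 and 10.24 with MN1-TEL, and 10.00, 10.11 and 10.10 with MN1-TEL del DBD. Both probes thus rose with each fusion. Between the fusions the brighter probe differed by -0.14 (95% interval -0.44 to 0.16, adjusted p = 0.492) and the dimmer by 0.05 (-0.33 to 0.42, adjusted p = 0.874). The brighter Jak2 probe kept its calls against MN1 under all 21 alternative settings, and the dimmer under the 19 that included it.

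Jak1, which pairs with gp130 and with the common gamma chain receptors, rose by less. Its only detected probe read 8.52, 8.57 and 8.72 with MN1, 9.45, 9.25 and 9.32 with MN1-TEL, and 8.87, 9.06 and 9.09 with MN1-TEL del DBD. The 3 groups did not overlap, and MN1-TEL del DBD lay between the other groups. The difference from MN1 was 0.74 (SE 0.11, 1.67-fold, adjusted p = 6.40e-04) with MN1-TEL and 0.41 (SE 0.11, 1.32-fold, adjusted p = 0.0241) with MN1-TEL del DBD. The latter did not pass when MN1 replicate 1 (adjusted p = 0.0906) was left out, nor without MN1 replicate 2 (0.0802), MN1-TEL del DBD replicate 2 (0.0835) or replicate 3 (0.0867). MN1-TEL del DBD differed from MN1-TEL by -0.33 (95% interval -0.59 to -0.08, adjusted p = 0.0609), and by -0.38 (adjusted p = 0.0387) without MN1-TEL replicate 2.

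Stat3, the main STAT of the IL-6 and G-CSF receptors, had 3 detected probes that did not move alike. The brightest read 11.84, 11.89 and 11.93 with MN1, 11.36, 11.48 and 11.51 with MN1-TEL, and 11.88, 11.84 and 11.86 with MN1-TEL del DBD. MN1-TEL was the low group, with no overlap, while the other constructs overlapped. The difference was -0.44 (SE 0.09, adjusted p = 0.00404) for MN1-TEL against MN1, -0.03 (95% interval -0.24 to 0.18, adjusted p = 0.859) for MN1-TEL del DBD against MN1, and 0.41 (SE 0.09, adjusted p = 0.0121) between the fusions. This last call was lost with median scaling (0.35, adjusted p = 0.0679). The next probe fell by 0.48 (SE 0.12, adjusted p = 0.00888) with MN1-TEL against MN1 and was 0.68 higher (SE 0.12, adjusted p = 0.00366) with MN1-TEL del DBD than with MN1-TEL, with values of 10.99 to 11.09, 10.38 to 10.67 and 11.15 to 11.40 in the 3 groups.

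The dimmest Stat3 probe is annotated to a different RefSeq transcript and read 6.67, 6.43 and 6.62 with MN1, 7.20, 6.46 and 7.66 with MN1-TEL, and 7.21, 7.75 and 8.09 with MN1-TEL del DBD. MN1-TEL replicate 2 lay among the MN1 arrays, and its fellow arrays lay above them. MN1-TEL del DBD was 1.11 higher than MN1 (SE 0.30, 2.15-fold, adjusted p = 0.0233), which did not pass when MN1 replicate 1 (adjusted p = 0.0549), 2 (0.0747) or 3 (0.0567) was left out, nor without MN1-TEL del DBD replicate 2 (0.0718) or 3 (0.0876). MN1-TEL differed from MN1 by 0.53 (95% interval -0.16 to 1.22, adjusted p = 0.178), and by 0.85 (adjusted p = 0.0172) without MN1-TEL replicate 2. Averaging the 3 Stat3 probes gave 0.43 (adjusted p = 0.0232) for MN1-TEL del DBD against MN1, where the brightest probe alone gave -0.03 and was not called. For MN1-TEL against MN1 the average gave -0.13 (adjusted p = 0.399).

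Stat5a, a STAT of the IL-3 and GM-CSF receptors, passed no test. Its brighter probe read 9.81, 9.51 and 9.59 with MN1, 9.88, 8.76 and 9.67 with MN1-TEL, and 9.84, 9.92 and 9.93 with MN1-TEL del DBD. The low value of 8.76 is MN1-TEL replicate 2, and the MN1 and MN1-TEL groups overlap. The difference from MN1 was -0.20 (95% interval -0.77 to 0.37, adjusted p = 0.544) with MN1-TEL and 0.26 (-0.31 to 0.83, adjusted p = 0.475) with MN1-TEL del DBD. The dimmer probe spread over 6.86 to 7.89, 6.33 to 7.56 and 6.76 to 7.30 in the 3 groups, with adjusted p between 0.484 and 0.84. The only Stat5b probe stayed at background on all 9 arrays, at log2 values of 4.65 to 4.99, so no level is given for this closely related gene.

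Socs3, the feedback inhibitor that binds gp130 and JAK kinases and one of the genes with a motif match above, had a call against MN1 with both fusions. It read 9.39, 9.52 and 9.38 with MN1, 10.24, 10.24 and 10.34 with MN1-TEL, and 10.60, 10.54 and 10.55 with MN1-TEL del DBD. The 3 groups did not overlap, in the order MN1, MN1-TEL, MN1-TEL del DBD. The rise was 0.84 (SE 0.09, 1.79-fold, adjusted p = 1.04e-04) with MN1-TEL and 1.13 (SE 0.09, 2.19-fold, adjusted p = 3.22e-05) with MN1-TEL del DBD, and both calls held under all 21 alternative settings. The fusions differed by 0.29 (95% interval 0.07 to 0.50, adjusted p = 0.057), called under 4 of 21 alternatives.

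Cish, which competes with STAT5 for receptor docking and whose window held 2 motif matches, had a call with MN1-TEL del DBD. It read 12.85, 12.87 and 13.06 with MN1, 13.21, 13.09 and 13.20 with MN1-TEL, and 13.31, 13.35 and 13.45 with MN1-TEL del DBD. The 3 groups stepped up in that order without overlap. MN1-TEL del DBD was 0.44 higher than MN1 (SE 0.10, 1.36-fold, adjusted p = 0.0112), but 0.11 higher (adjusted p = 0.516) with median scaling. MN1-TEL differed from MN1 by 0.24 (95% interval 0.01 to 0.48, adjusted p = 0.0808), or -0.03 with median scaling, and the fusions by 0.20 (-0.03 to 0.43, adjusted p = 0.198).

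Socs2, the growth hormone and cytokine receptor feedback inhibitor, was the member that fell with MN1-TEL del DBD. It read 12.70, 12.66 and 12.69 with MN1, 12.58, 11.89 and 12.31 with MN1-TEL, and 11.88, 11.67 and 11.65 with MN1-TEL del DBD. MN1-TEL replicate 2 was the low array of its group, just above the highest MN1-TEL del DBD array, and no groups overlapped. Against MN1 it fell by 0.95 (SE 0.17, 1.93-fold, adjusted p = 0.00277) with MN1-TEL del DBD, a call that held under all 21 alternative settings, and differed by -0.42 (95% interval -0.80 to -0.04, adjusted p = 0.063) with MN1-TEL. Without MN1-TEL replicate 1 the latter was -0.59 (adjusted p = 0.0142), and with median scaling -0.66 (adjusted p = 0.0038), and it was called under 4 of 21 alternatives. The fusions differed by -0.53 (95% interval -0.91 to -0.15, adjusted p = 0.0507), called under 10 of 21 alternatives, with -0.71 (adjusted p = 0.00317) without MN1-TEL replicate 2.

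Socs1, the direct inhibitor of JAK catalysis, was dim. It read 5.84, 6.13 and 5.87 with MN1, 7.03, 6.86 and 6.03 with MN1-TEL, and 5.95, 5.92 and 6.0 with MN1-TEL del DBD, and was detected on 1, 3 and 0 of the 3 arrays. Replicates 1 and 2 of MN1-TEL were high, while replicate 3 lay among the MN1 arrays, so these groups overlap. The difference from MN1 was 0.69 with MN1-TEL (SE 0.23, adjusted p = 0.0339), a call lost under 10 of 20 alternatives. The adjusted p rose to 0.0972 without MN1 replicate 1, 0.0901 without MN1 replicate 3, 0.11 and 0.0762 without MN1-TEL replicates 1 and 2, and 0.0504 and 0.0507 without MN1-TEL del DBD replicates 2 and 3. Socs1 was at least 1.55-fold higher with MN1-TEL than with MN1-TEL del DBD, with an adjusted p of 0.0617, or 0.00178 without MN1-TEL replicate 3.

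Pim1, a serine/threonine kinase gene that STAT3 and STAT5 induce, had 2 probes called in opposite directions. The brighter read 6.41, 7.11 and 6.98 with MN1, 6.0, 5.02 and 6.41 with MN1-TEL, and 6.73, 6.96 and 7.05 with MN1-TEL del DBD, and the dimmer read 5.84, 5.58 and 6.05, then 6.21, 6.49 and 6.18, then 6.60, 6.51 and 6.39. The lowest value of the brighter probe is again MN1-TEL replicate 2, on which it was not detected. The dimmer probe was not detected on any MN1 array. Brighter refers to the mean over all arrays: with MN1-TEL its mean was 5.81, below the 6.29 of the dimmer probe. With MN1-TEL against MN1 the brighter probe fell by 1.03 (SE 0.33, adjusted p = 0.0279), while the dimmer was at least 1.08-fold higher (adjusted p = 0.0267). With MN1-TEL del DBD against MN1 they gave 0.08 (95% interval -0.66 to 0.82, adjusted p = 0.882) and at least 1.25-fold higher (adjusted p = 0.00804). The brighter probe was 1.10 higher with MN1-TEL del DBD than with MN1-TEL (SE 0.33, adjusted p = 0.0383).

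The call of the dimmer Pim1 probe with MN1-TEL del DBD against MN1 was lost under 1 of 18 alternatives, that without background correction (adjusted p = 0.0501), and the other Pim1 calls were each lost when single arrays were left out. The call of the brighter probe against MN1 was lost without MN1 replicate 2 (adjusted p = 0.0922) or 3 (0.0807), and that of the dimmer without MN1 replicate 1 (0.064), MN1 replicate 2 (0.101) or MN1-TEL replicate 2 (0.0578). The brighter Pim1 probe lost its call between the fusions without MN1 replicate 2 (0.0518) or 3 (0.0564), MN1-TEL replicate 1 (0.0644), or MN1-TEL del DBD replicate 1 (0.0676), 2 (0.101) or 3 (0.117). Averaging the Pim1 probes gave -0.28 (adjusted p = 0.147) for MN1-TEL against MN1.

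**Figure D3:**
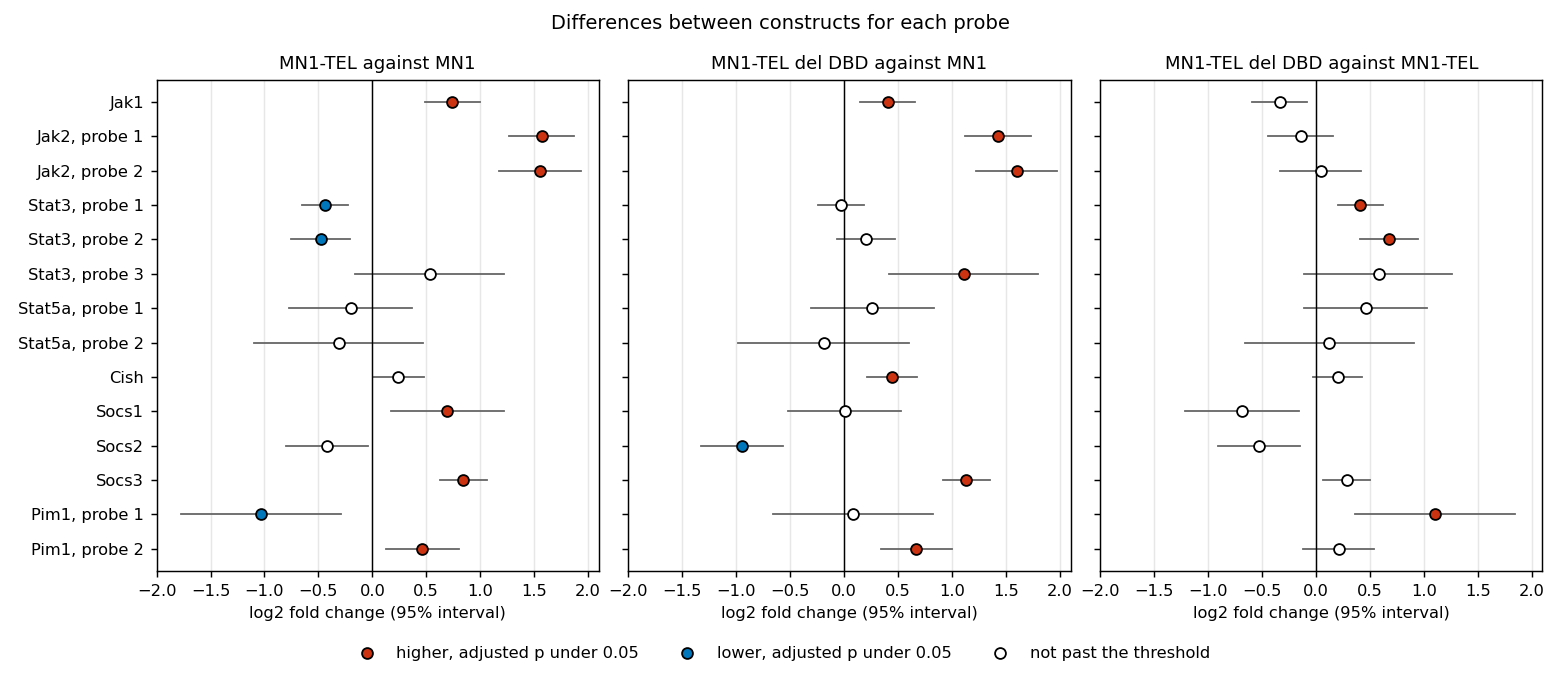
Log2 difference of each member probe in the 3 comparisons, with its 95% interval as a bar and filled points (red higher, blue lower) where the adjusted p was under 0.05. Both Jak2 probes and Socs3 lie clear of 0 against MN1 with either fusion, and the Stat3 and Pim1 probes lie on both sides of 0 with MN1-TEL.

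Other genes followed some members closely over the 9 arrays, measured as the distance between mean-centred log2 values. For Jak2, whose group means spanned 1.57, the nearest genes were Plcl2 (distance 0.28), Slc25a12 (0.38) and 5430427O19Rik (0.41). For Socs3, whose means spanned 1.13, they were Cd84 (0.27), Slc25a45 (0.30) and Casp1 (0.31). The brighter Pim1 probe spanned 1.10 and lay nearest to Clip2 (0.40), Setd5 (0.65) and Lonp1 (0.67), and the brighter Stat5a probe spanned 0.46 and lay nearest to Copg2 (0.38), Sdf2l1 (0.40) and Gpx4 (0.40).

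The rest of the pathway was described from a list of 98 other genes, of which 73 were tested and the others did not pass the filter or were not analysed here. With MN1-TEL against MN1, 31 rose and 15 fell (63% called, where 52.2% of all genes were), and with MN1-TEL del DBD against MN1, 28 rose and 7 fell (47.9%, beside 34.0%). Between the fusions, 13 were higher and 8 lower with MN1-TEL del DBD (28.8%, beside 26.0%). The median log2 difference of the 73 genes was 0.32, 0.32 and 0.01.

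Of 19 receptor genes tested, 9 rose and 2 fell with MN1-TEL, and 9 rose and 1 fell with MN1-TEL del DBD, against MN1 (57.9% and 52.6% called, beside 52.2% and 34.0% of all genes). Csf2ra, the GM-CSF receptor alpha chain, rose by 2.17 (SE 0.15, adjusted p = 4.32e-06) and 1.98 (SE 0.15, adjusted p = 1.41e-05), and Csf3r, the G-CSF receptor, which is also a neutrophil marker, by 1.39 (adjusted p = 2.80e-05) and 1.00 (adjusted p = 4.39e-04). Il6ra, the IL-6 receptor alpha chain, was at least 2-fold higher with MN1-TEL than with MN1 (adjusted p = 3.25e-05) and fell by 1.49 on the log2 scale from MN1-TEL to MN1-TEL del DBD (adjusted p = 9.67e-04). Il13ra1, an IL-13 receptor chain, was at least 3.44-fold higher with MN1-TEL del DBD than with MN1 (adjusted p = 9.53e-06). Between the fusions, Il2ra, the IL-2 receptor alpha chain, was at least 5.89-fold higher (adjusted p = 1.58e-04) and Csf2rb2, the IL-3 receptor beta chain of the mouse, fell by 1.36 (SE 0.16, adjusted p = 3.93e-04) with MN1-TEL del DBD. Of 6 ligand genes tested, 1 rose and 1 fell with MN1-TEL, and 1 rose and 3 fell with MN1-TEL del DBD. The shares called were 33.3% and 66.7%, beside 52.2% and 34.0% of all genes. Csf2, the gene of GM-CSF, fell by 2.69 (SE 0.33, adjusted p = 1.78e-04) and 2.42 (SE 0.33, adjusted p = 6.77e-04).

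Of the 5 other JAK and STAT genes tested, 2 rose and 3 fell with MN1-TEL against MN1. With MN1-TEL del DBD against MN1, 1 rose and 1 fell. The shares called were 100% and 40%, beside 52.2% and 34.0% of all genes. Tyk2 was among those that rose with MN1-TEL, a call lost with median scaling (0.13, adjusted p = 0.36). It was also lost without MN1 replicate 1 (adjusted p = 0.0639), 2 (0.131) or 3 (0.136), among other settings. Jak3, the partner of the common gamma chain, fell by 1.31 (SE 0.20, adjusted p = 6.70e-04) with MN1-TEL and was 1.40 higher with MN1-TEL del DBD than with MN1-TEL (SE 0.20, adjusted p = 0.00127). Stat4, a STAT of the IL-12 receptor, fell by 0.80 (SE 0.12, adjusted p = 4.63e-04) and was 0.88 higher with MN1-TEL del DBD than with MN1-TEL (adjusted p = 8.16e-04). Stat6, the STAT of IL-4 and IL-13, fell by 0.63 (SE 0.15, adjusted p = 0.00775) with MN1-TEL against MN1. It also fell with MN1-TEL del DBD against MN1, by 0.58 (SE 0.15, adjusted p = 0.0187). The latter call was lost without MN1 replicate 1 or 3 or MN1-TEL del DBD replicate 1. Of the 5 other SOCS and PIM genes tested, 1 rose and 3 fell with MN1-TEL, and 1 rose and 2 fell with MN1-TEL del DBD, against MN1. The shares called were 80% and 60%, beside 52.2% and 34.0% of all genes. Socs5 fell by 1.19 (SE 0.16, adjusted p = 2.58e-04) and Socs6 by 1.30 (SE 0.20, adjusted p = 7.10e-04) with MN1-TEL, opposite in direction to Socs3. Socs6 also fell with MN1-TEL del DBD against MN1, by 0.93 (SE 0.20, adjusted p = 0.00806). Pim3 rose by 1.06 (SE 0.15, adjusted p = 7.43e-04) with MN1-TEL del DBD against MN1. Of 10 other genes tested that were listed as negative regulators, 4 rose and 1 fell with MN1-TEL. With MN1-TEL del DBD, 1 rose and none fell (50% and 10% called, below the shares of all genes). The gene that fell with MN1-TEL was Sh2b1, by 0.82 (SE 0.15, adjusted p = 0.00159). Whether each listed gene inhibits JAK signaling was not tested, so the fall of Sh2b1 is not read as loss of an inhibitor. Ptpn2, a phosphatase of JAK1 and STAT proteins, rose by 1.19 (SE 0.12, adjusted p = 5.19e-05) with MN1-TEL, and Pias3, an inhibitor of STAT3, by 1.07 (SE 0.16, adjusted p = 5.38e-04).

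Of 9 STAT5 target genes, 3 rose and 1 fell with MN1-TEL, and 2 rose and none fell with MN1-TEL del DBD, against MN1 (44.4% and 22.2% called, below the 52.2% and 34.0% of all genes). Bcl6, which STAT5 is known to repress, was at least 2.73-fold higher with MN1-TEL (adjusted p = 1.58e-05) and at least 1.24-fold higher with MN1-TEL del DBD (adjusted p = 6.84e-04). Osm, the gene of oncostatin M, rose by 0.70 (SE 0.11, adjusted p = 9.22e-04) with MN1-TEL, with 0.01 (adjusted p = 0.974) for MN1-TEL del DBD against MN1, and the former became 0.33 (adjusted p = 0.0642) with median scaling and 0.69 (adjusted p = 0.143) with the mean of its probes. Of 8 STAT3 targets tested, 4 rose and 2 fell with MN1-TEL, and 4 rose and none fell with MN1-TEL del DBD. The shares called were 75% and 50%, beside 52.2% and 34.0% of all genes. Saa3, an acute phase protein gene, was at least 17.8-fold (adjusted p = 3.88e-06) and at least 10.1-fold higher (adjusted p = 2.45e-05), while Vegfa, a vascular growth factor gene, fell by 1.46 (SE 0.16, adjusted p = 7.52e-05) with MN1-TEL.

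**Figure D4:**
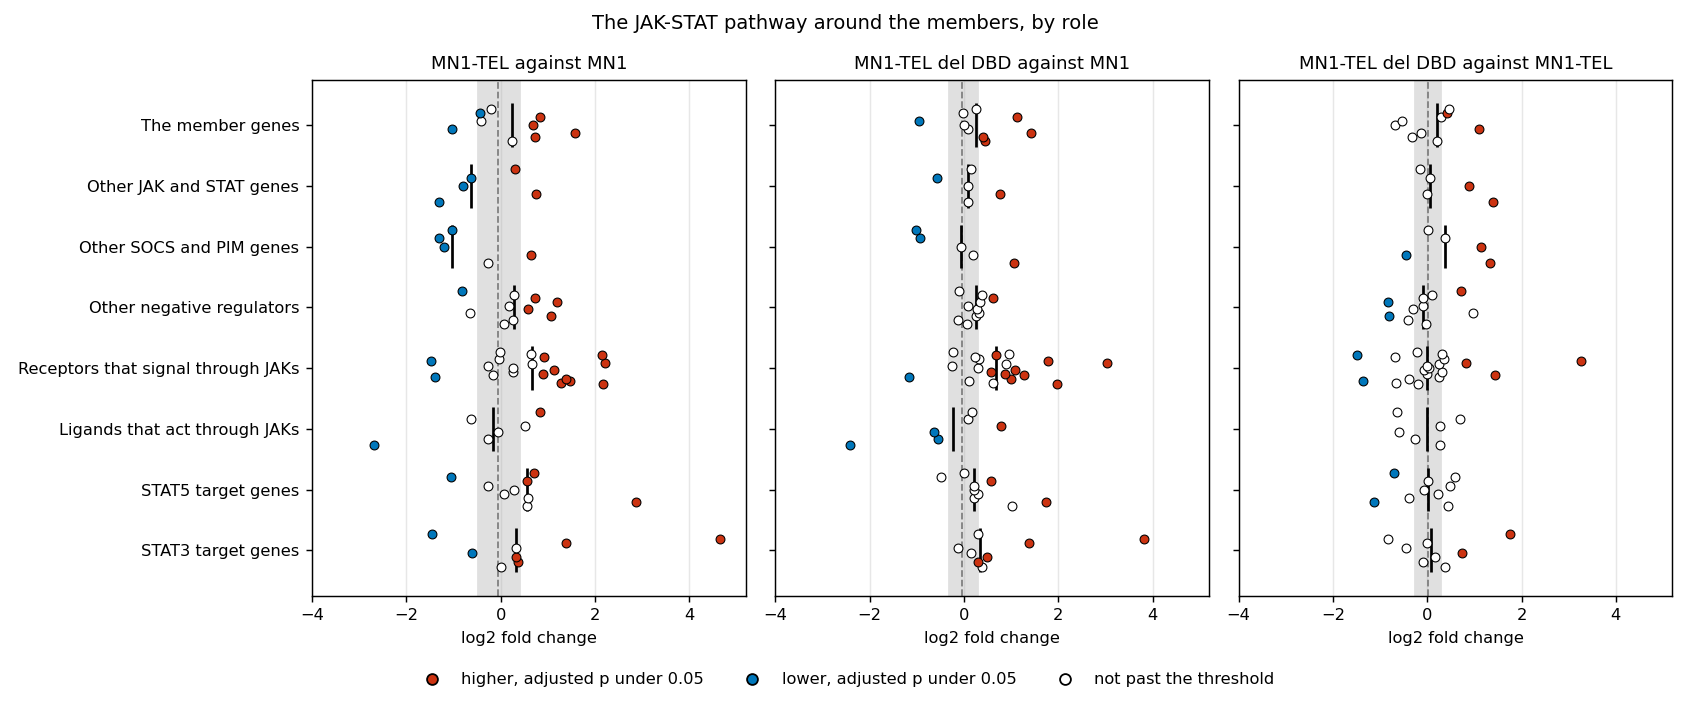
Log2 difference of the members and of the other pathway genes of 7 roles, by role and comparison, with a point per gene (red higher, blue lower, open not called), a bar at the median of the list, and the quartiles and median of all genes as a grey band and dashed line. The receptor list has medians of 0.66 and 0.67 against MN1, above the median of all genes.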

How the data were processed

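Biotin-labelled RNA of 9 samples was hybridised to Illumina mouse arrays, 3 per construct, with groups and replicate numbers from the sample titles. The authors deposited a table of linear intensity values, 1 per probe for each array, that appear not normalized, and, per the file headers, a detection p-value beside each intensity. GenomeStudio 2010.3 is named by the submitters' processing notes; what else was done is not given in the sources used here. A deposited table of the authors' normalized intensity values served as an alternative. Intensities were background-corrected and quantile normalized with neqc in limma 3.58.1 (R 4.3.3; normexp with negative controls inferred from the detection p-values, offset 16) and taken to log2. Kept probes had at least 3 of 9 arrays with a detection p-value below 0.01. A single limma fit over all 15870 kept probes and 9 arrays, with 6 residual degrees of freedom, gave two-sided moderated tests, adjusted by Benjamini-Hochberg over all kept probes, with a threshold of 0.05. Errors are standard errors of the fit and intervals are 95%. The fit was tested on simulated data. Of 45281 probes, 34885 had 1 annotated symbol, 18 several and 10378 none. Precision is limited by the number of arrays. All probes of the members are given; from each other pathway list, up to 3 genes per comparison could be named, those with the smallest adjusted p, and for the member with the widest span in each role, the 3 genes with the most alike pattern. A further pathway list counts in the totals over other pathway genes and is not reported here by itself. The members and the lists were chosen with earlier results of these data known. Replicate numbers were checked for pairing: deviations of same-numbered arrays from their group means correlated between -0.22 and 0.26, so the numbers were not taken as pairs. Alternatives were other normalization, background correction, offset, table, filters, units of the fit, array weights, variance model, sample sets, a replicate block, each array left out and a fold threshold.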

Additional observations from a re-analysis of the deposited data

How the results depend on the processing

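Over 21 alternative settings, 42 member results gave 765 values with an unchanged call, 45 that lost a call and 32 that gained one. A further 1 had the opposite direction and a call in the alternative fit. Unchanged means called in both fits with the same sign, or called in neither, where the sign could differ. With MN1-TEL against MN1, for example, uncalled Cish went from 0.24 to -0.03, and the brighter Stat5a probe from -0.20 to as much as 0.14. The 42 other genes named by rule lost a call 90 times and gained one 59 times. They took the opposite direction with a call 1 time. The opposite directions that came with a call were both in MN1-TEL del DBD against MN1. They were Stat3, at 0.43 with the mean of a gene's probes, and Osm, at -0.39 with median scaling. Both genes had a small main difference there, which was not called. The mean takes in the dimmest Stat3 probe, and for Osm the cause was not tested. A further 2-fold minimum left 2, 2 and 1 member genes, 3, 4 and 1 member probes, and 27, 18 and 10 other pathway genes in the comparisons MN1-TEL against MN1, MN1-TEL del DBD against MN1 and MN1-TEL del DBD against MN1-TEL. In the last comparison the member gene count of 2 became 5 without background correction, 4 for probes detected on all 9 arrays, 1 with no filter on dim probes, 6 with 1 probe per gene or with the mean of a gene's probes, 4 with array weights and 1 with only the 2 groups compared; the probe count of 3 became 6 without background correction, 5 for probes detected on all 9 arrays and 5 with array weights. For these counts the cause was not tested beyond what the setting itself changes. Leaving out each array in turn gave 4 to 6, 4 to 5 and 1 to 4 member genes, 7 to 9, 6 to 8 and 2 to 5 member probes, and 41 to 53, 25 to 42 and 19 to 25 other pathway genes. With the replicate number as a block, 6, 5 and 2 member genes, 8, 8 and 3 member probes and 44, 31 and 23 other pathway genes were called; the block took the calls of the brighter Pim1 probe between the fusions (adjusted p = 0.0502) and of the dimmer with MN1-TEL against MN1 (0.0564), and added Socs2 between the fusions (0.0484). The slide as a block was not run, since the column names give no slide. Low signal limits Socs1, both Pim1 probes and Stat5b, whose probes lie near background. The brighter Pim1 probe read 5.02 to 7.11 over the arrays.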
